A study of Mus musculus with 20 samples.

Results

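In mouse hematopoietic stem cells (HSCs), 240 wide regions with an ATAC-seq peak of every library lay mostly at gene starts rich in CpG, and the share of their genes called in RNA between Control and Kdm6b-KO cells was near that of all tested genes. ATAC-seq cuts accessible DNA with a transposase, and a peak is a stretch where a peak caller found more cuts than the background. Peaks of the 6 deposited lists were merged where they shared at least 1 bp, which gave 149774 regions. Of these, 19466 held a peak of all 6 libraries and are called constitutive here, and 240 of them were 1500 bp or longer. The 240 were chosen by their measured width and their presence in all 6 lists, so width, peak number and coverage are given as descriptions without a test. The other 19226 constitutive regions, under 1500 bp, are called narrower.

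Kdm6b is an enzyme that removes methyl groups from lysine 27 of histone H3. The Vav promoter drives Cre recombinase in blood cells. Control mice carried Vav-Cre with Kdm6b+/+ and Kdm6b-KO mice Vav-Cre with Kdm6bfl/fl, so both groups carried the Cre transgene. All were C57BL/6 mice of 8 weeks. HSCs were sorted as lineage-negative, cKit+, Sca1+, CD150+, CD48- cells, and RNA was counted in 3 libraries of each genotype, every one made from pooled marrow of 3 male and 3 female mice. The 6 ATAC libraries came from 10000 HSCs each. Their titles name 3 as Control and 3 as 6bKO, while the genotype field reads wild-type for all 6, so the latter are called here the libraries titled 6bKO. No label says whether the ATAC libraries were pooled or came from separate mice.

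RNA libraries held 6793873 to 19336121 counts on genes, so that 3 counts corresponded to 0.148 to 0.461 CPM (counts relative to library size, with TMM scaling). Among markers of the sorted cells, 0 of 32 transcription factor genes and 0 of 23 surface and signalling genes of HSCs were without a count in all 6 libraries. The same held for 35 markers of committed blood cells and 18 of other tissues, so detection alone did not set the lists apart. Summed levels were 6481 to 9184 CPM for the transcription factor genes and 4779 to 7251 CPM for the surface and signalling genes. The summed level of 35 markers of committed blood cells was Control CPM of 4185, 1516 and 2485 and Kdm6b-KO CPM of 4689, 350.9 and 387.5, and that of 18 markers of other tissues lay between 135.2 and 215.7 CPM. Kdm6b itself had Control CPM of 92.0, 282.5 and 220.6 and Kdm6b-KO CPM of 142.5, 202.1 and 191.3 (log2 fold change -0.15, SE 0.35, adjusted p = 0.882), counted over the whole gene, and no constitutive region was linked to it. Its paralog Kdm6a had Control CPM of 86.8, 82.2 and 82.5 and Kdm6b-KO CPM of 69.5, 80.4 and 65.1 (log2 fold change -0.23, SE 0.18, adjusted p = 0.590), and its start lay in a narrower region of 973 bp.

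Promoters of widely used mammalian genes often lie in CpG islands, which are stretches of DNA that kept a high density of CG dinucleotides because they escape DNA methylation. Such promoters tend to be free of stable nucleosomes and to start transcription in both directions. Promoters with few CG dinucleotides more often carry a TATA box, a motif just upstream of the start that positions the transcription machinery.

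The promoter windows of 7 genes show what the wide regions hold at the start of a gene. Each runs 5′ to 3′ on the gene's strand from 250 bases before the annotated start to 50 after it, from RefSeq on GRCm38.p6, with every CG in capitals. Galnt7 (chr8:57653006-57653305, minus strand), Setd7 (chr3:51560774-51561073, minus strand) and Cdc42ep3 (chr17:79355042-79355341, minus strand) have their starts in the 3 widest regions with a protein-coding start, and are shown for that reason.
Galnt7: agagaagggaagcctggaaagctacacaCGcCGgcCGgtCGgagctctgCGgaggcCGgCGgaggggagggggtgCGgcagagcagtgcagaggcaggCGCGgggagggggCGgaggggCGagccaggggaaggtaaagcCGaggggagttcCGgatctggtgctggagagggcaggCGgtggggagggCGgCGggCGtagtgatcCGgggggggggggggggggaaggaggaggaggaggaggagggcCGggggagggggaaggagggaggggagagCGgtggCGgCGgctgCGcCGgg
Setd7: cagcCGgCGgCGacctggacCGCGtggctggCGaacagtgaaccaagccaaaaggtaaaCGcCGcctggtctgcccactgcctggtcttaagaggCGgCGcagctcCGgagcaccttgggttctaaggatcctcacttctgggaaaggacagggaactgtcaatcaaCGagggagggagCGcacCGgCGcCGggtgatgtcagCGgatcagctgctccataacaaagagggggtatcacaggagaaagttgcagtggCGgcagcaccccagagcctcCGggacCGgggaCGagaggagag
Cdc42ep3: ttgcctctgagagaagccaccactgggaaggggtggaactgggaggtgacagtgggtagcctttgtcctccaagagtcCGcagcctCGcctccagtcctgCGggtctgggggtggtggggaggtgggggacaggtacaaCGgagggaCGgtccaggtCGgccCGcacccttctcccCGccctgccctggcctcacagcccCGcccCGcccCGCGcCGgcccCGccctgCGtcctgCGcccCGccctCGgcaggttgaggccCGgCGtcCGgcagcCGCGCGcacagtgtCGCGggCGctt
Their windows hold 25, 21 and 27 CG dinucleotides. The Cep83os window (chr10:94688564-94688863, minus strand) is shown because Cep83os was the 1 gene at a wide region called in the RNA test, and it holds 46.
Cep83os: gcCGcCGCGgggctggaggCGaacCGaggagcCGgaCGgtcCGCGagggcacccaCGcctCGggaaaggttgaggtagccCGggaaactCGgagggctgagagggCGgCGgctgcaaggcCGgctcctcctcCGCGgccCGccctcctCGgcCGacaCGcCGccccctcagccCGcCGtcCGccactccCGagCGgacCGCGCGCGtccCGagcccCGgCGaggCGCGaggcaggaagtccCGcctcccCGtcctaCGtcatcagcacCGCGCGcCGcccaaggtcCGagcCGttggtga
Plekha5 (chr6:140423849-140424148, plus strand) and Cul1 (chr6:47453482-47453781, plus strand) are the ends of the range among protein-coding windows in wide regions, with 59 and 5 CG dinucleotides.
Plekha5: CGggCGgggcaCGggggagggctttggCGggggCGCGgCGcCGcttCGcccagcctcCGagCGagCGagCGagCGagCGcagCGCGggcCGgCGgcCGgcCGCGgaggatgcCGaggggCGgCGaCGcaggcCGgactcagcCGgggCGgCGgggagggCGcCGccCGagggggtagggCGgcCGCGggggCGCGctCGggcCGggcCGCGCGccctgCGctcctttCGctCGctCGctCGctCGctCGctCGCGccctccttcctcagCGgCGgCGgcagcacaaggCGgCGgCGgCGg
Cul1: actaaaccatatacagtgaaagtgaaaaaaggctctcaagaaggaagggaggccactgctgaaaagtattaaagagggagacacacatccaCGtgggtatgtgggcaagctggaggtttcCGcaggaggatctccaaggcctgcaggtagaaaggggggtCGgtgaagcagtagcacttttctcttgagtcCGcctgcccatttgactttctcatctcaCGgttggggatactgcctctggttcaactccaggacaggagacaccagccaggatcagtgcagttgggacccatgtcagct
Vim (chr2:13574061-13574360, plus strand) has the widest region whose protein-coding window holds the letters TATAAA, which begin 32 bases before the start, and it holds 11 CG dinucleotides.
Vim: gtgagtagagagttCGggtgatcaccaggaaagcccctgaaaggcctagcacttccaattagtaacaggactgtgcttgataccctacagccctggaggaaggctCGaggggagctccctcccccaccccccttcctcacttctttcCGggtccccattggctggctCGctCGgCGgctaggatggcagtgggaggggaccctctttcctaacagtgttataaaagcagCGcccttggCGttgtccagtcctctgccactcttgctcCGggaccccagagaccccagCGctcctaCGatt

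The wide regions ranged from 1501 to 2322 bp with a median of 1634 bp and covered 401656 bp in all. They were built from 6 to 14 peaks, with a median of 9. Only 25 of the 240 had exactly 1 peak per library, against 17275 of the 19226 narrower regions. Their width was mostly the union of peaks that differed between libraries. The stretch covered in all 6 libraries had a median of 398.5 bp, or 23.8% of the region, and was 0 bp in 21 regions. In the narrower regions it had a median of 293 bp, or 46.2%. At least 1 library covered 1500 bp or more in 129 wide regions, and all 6 libraries did so in 0. The region with the longest shared stretch, 1370 of 1585 bp, lay at Gt(ROSA)26Sor on chromosome 6 (113076015 to 113077599), the locus used for ubiquitous transgene expression in mice. Its libraries covered 1545, 1547 and 1574 bp in Control and 1370, 1537 and 1538 bp in those titled 6bKO.

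Coverage of the wide regions differed more among libraries of the same title than between the groups. The median covered length was 794.5, 981.5 and 1354 bp in Control 1, 2 and 3 and 698, 1126 and 1384 bp in the libraries titled 6bKO 1, 2 and 3. The mean over libraries of the mean covered length was 1033 ± 266.9 bp in Control and 1074 ± 315.9 bp in 6bKO (SD, n = 3 each), a difference smaller than either SD. Library 6bKO 3 covered the most base pairs in 103 regions and Control 3 in 88, while 6bKO 1 covered the fewest in 115 and Control 1 in 83. Control 3 covered more than Control 1 in 224 of the 240 regions, and 6bKO 3 covered more than 6bKO 1 in 228.

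**Figure D1:**
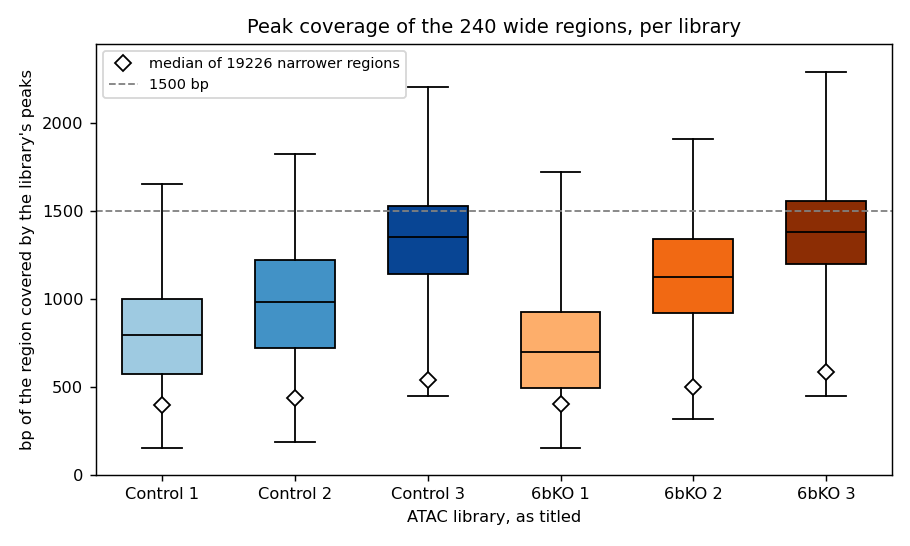
Base pairs of each of the 240 wide regions covered by the peaks of each ATAC library. Boxes give the quartiles and the median, whiskers the lowest and highest region, diamonds the median of the narrower regions, and the dashed line 1500 bp. The medians of Control 3 and 6bKO 3, at 1354 and 1384 bp, lie above the other 4, which range from 698 to 1126 bp.

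The libraries' order followed how wide their peaks were in general, except that the lowest places were exchanged. The median peak of a whole list was 273, 299 and 327 bp in Control 1, 2 and 3 and 274, 317 and 346 bp in 6bKO 1, 2 and 3. The number of peaks did not give the same order, since 6bKO 1 had 63682 peaks, the second most after the 69729 of 6bKO 3, and the lowest coverage of wide regions. Peaks of 1500 bp or more numbered 4, 9 and 61 in the Control lists and 3, 24 and 77 in the 6bKO lists. The read depth of these libraries is unknown here, and its part in peak width was not tested.

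Every library titled 6bKO covered more base pairs than every Control library in 12 wide regions (5.00%), where 7.75% of all 19466 constitutive regions did so. The opposite was found in 4 wide regions (1.67%), against 1.32% of all constitutive regions. Both shares were near those of all constitutive regions. Among the 12 was the region at Cnksr3, a scaffold gene of MAP kinase signalling, with 773, 880 and 1189 bp in Control and 1405, 1714 and 1668 bp in 6bKO. The region at Mtf1, the metal-responsive transcription factor gene, had 575, 674 and 1056 bp in Control and 1399, 1272 and 1244 bp in 6bKO. Gt(ROSA)26Sor was among the 4, with the narrow gap seen in its values above. The 12 genes tested for RNA at the 12 regions had log2 fold changes from -0.54 to 0.92 and adjusted p of 0.279 or more, and none of the 4 tested at the other 4 regions was called.

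In each library the strongest peaks of wide regions ranked lower in their list than those of narrower regions. The median percentile by the authors' fold within each list was 65.9 to 80.3 for wide regions across the 6 libraries, against 76.4 to 84.2 for narrower regions. Wide regions had more peaks per library to choose from, with means of 1.36 to 1.59 against 1.02 to 1.04. Both sets were chosen by presence in all 6 lists, so a rank above the middle of a list is no separate result. The authors' fold enrichment at the strongest peak, a ratio of the signal over the background given for each peak, had medians in wide regions of 6.55, 8.01 and 9.46 in Control and 8.41, 8.60 and 10.2 in 6bKO. In narrower regions the medians were 7.39, 8.43 and 10.3 in Control and 10.3, 11.5 and 14.6 in 6bKO.

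Most wide regions held the start of a gene. An annotated start lay in 170 of the 240 (70.8%), against 36.2% of narrower regions. A further 34 (14.2%) held an end of a gene for which no strand was given, which can be its start or its 3′ end. Of the rest, 25 (10.4%) lay inside a gene away from its ends and 11 (4.58%) in no annotated gene, against 37.1% and 19.5% of narrower regions. A longer region has more room for a start, and per 10 kb of region the wide set held 5.55 genes with a start and the narrower set 5.87. The larger share per region was thus not a larger number per base. The 25 inside genes included those in Nr3c1, the glucocorticoid receptor gene, Tnik, a kinase gene of Wnt signalling, and Tet3, which encodes an enzyme that oxidises methylated cytosine. Chromosome 3 held 23 wide regions (9.58%, against 4.53% of narrower regions) and chromosome 11 held 10 (4.17%, against 7.96%).

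Wide regions, as merged, reached farther into the gene than ahead of it. In the 120 wide regions whose starts all pointed in 1 direction, the region extended a median of 644 bp upstream and 1058 bp downstream of its first start. The downstream side was the longer in 80 of them (66.7%), against 54.7% of 5871 narrower regions, where the medians were 355 and 381 bp. Measuring from the first of several starts lengthens the downstream side. With a single annotated start per region, the medians upstream and downstream were 746 and 987 bp in 91 wide regions and 358 and 371 bp in narrower regions. Of these, 62.6% of the wide and 53.1% of the narrower regions were longer downstream. The summit of the strongest peak nonetheless lay close to the start, at a median of 18.5 to 63.5 bp upstream across the 6 libraries. At 1000 bp downstream, between 16.7% and 44.2% of the wide regions were covered by a peak of a given library, and at 1000 bp upstream between 6.67% and 18.3%. At 500 bp the sides differed less evenly. Control 1, 2 and 3 covered 34.2%, 32.5% and 44.2% of regions upstream and 35.8%, 47.5% and 62.5% downstream, and 6bKO 1, 2 and 3 covered 35.8%, 47.5% and 54.2% upstream and 28.3%, 49.2% and 64.2% downstream. Library 6bKO 1 thus had more coverage upstream at this distance.

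**Figure D2:**
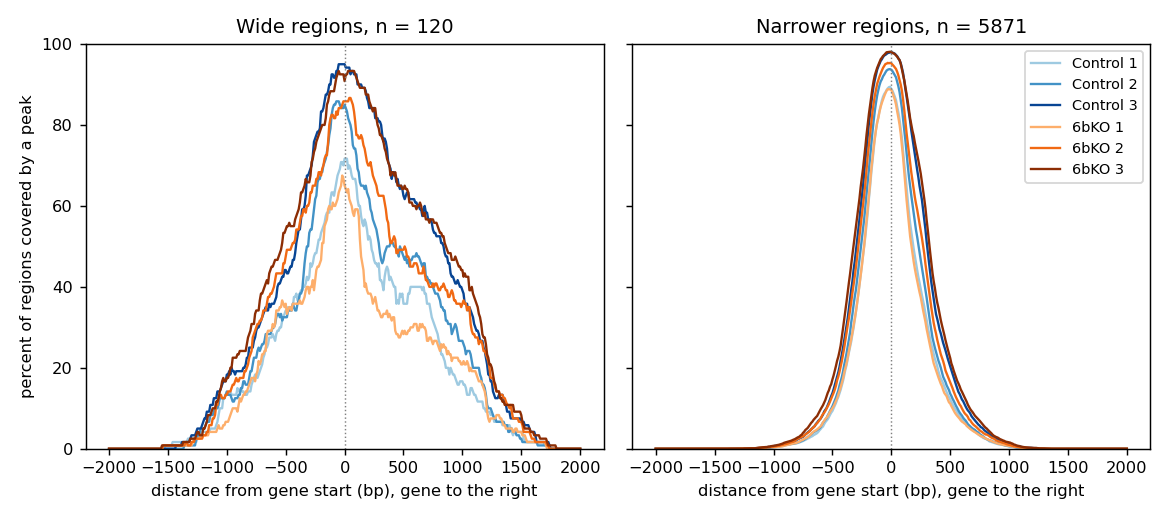
Percent of regions covered by a peak at each distance from the annotated gene start, for the 120 wide and 5871 narrower regions whose starts point in 1 direction, with 1 line per ATAC library and the gene to the right of 0. At 1000 bp wide regions had more coverage to the right than to the left in every library, while at 500 bp 6bKO 1 had less, at 28.3% against 35.8%.

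Pairs of genes facing away from each other were found in 29 wide regions (17.1% of those with a start, against 12.4% of narrower regions). Another 21 (12.4%, against 3.21%) held starts on both strands whose genes overlap or face each other. A longer region has more room for starts on both strands, and these shares were not adjusted for length. Up to 3 genes were linked to 1 region. The 4 regions with 3 genes included 1 of 1652 bp at Zfp91, a zinc-finger gene, Lpxn, which encodes the adhesion protein leupaxin, and the long noncoding RNA gene Gm44505, and 1 of 1573 bp on chromosome 13 (23516870 to 23518442) with 3 tRNA genes and no other. Of the other 2, 1 held R3hdm1, Zranb3 and Gm29383 in 1516 bp and the other Eif4enif1, Sfi1 and Gm51877 in 1512 bp.

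Promoter windows in wide regions were rich in CpG. The 294 windows of the 223 genes with a start there held a median of 27 CG dinucleotides (quartiles 18 and 38), against 22 in narrower regions and 7 among all 32851 windows. Their median G+C was 67.3%, against 62.3% and 52.7%. The ratio of observed to expected CG was 0.6 or more in 84.7% of them, against 78.5% and 35.8%. The windows of Plekha5 and Cul1 printed above are the extremes among protein-coding genes. In CG and G+C content, starts in wide regions thus differed from all promoters far more than from other starts in constitutively open regions.

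**Figure D3:**
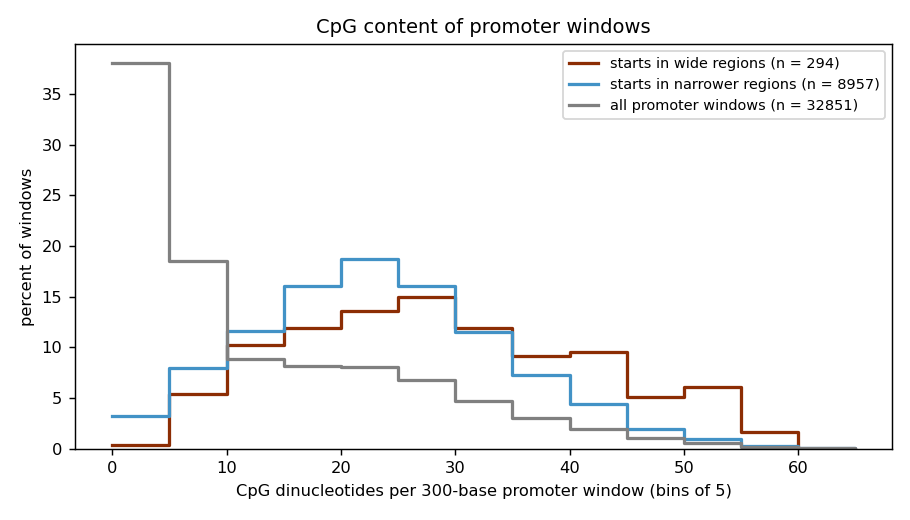
CG dinucleotides per 300-base promoter window, in bins of 5, as percent of windows, for starts in wide regions, starts in narrower regions and all windows. The windows in wide regions reach farther to the right, with a median of 27 against 22 in narrower regions and 7 in all.

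Short motifs were counted on both strands of the windows, without removing overlaps between motifs. GGGCGG, the core of the GC box, was in 74.5% of windows in wide regions, 69.7% in narrower regions and 35.7% of all windows. CCAAT was in 24.5% of windows in wide regions, less than the 40.9% in narrower regions and 37.4% of all. TATAAA was in 4.76%, 5.38% and 13.6%, and the ETS-type GGAAGTG in 11.9%, 16.5% and 11.0%. GCATGCG, part of the NRF1 motif, was in 7.48%, 6.84% and 3.58%. The GATA-factor motif, searched as AGATAA, was in 4.76%, 4.95% and 11.2%. The AP-1 motif TGACTCA was in 1.36%, 3.03% and 5.20%. Of the windows printed above, Cdc42ep3 and Plekha5 hold GGGCGG at 5 positions each, counting both strands, and Setd7 and Cul1 hold none of these motifs. These are matches of letters and no measurement of binding.

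The genes at wide regions were mostly expressed. In all, 284 genes were linked, 223 by a start and 61 by an end of a span without strand. Without the list of 6bKO 3 the number of linked genes was 189. Of the 284 linked genes 229 were protein-coding, 41 long noncoding RNA, 7 tRNA and 2 microRNA genes. The count files held 252 of the 284, and 232 of those (92.1%, 95% Wilson interval 88.1% to 94.8%) had enough counts to be tested for RNA. The share was 90.9% at narrower regions, which lay within the interval of that at wide regions. It was 30.6% of all 49671 counted genes, which were not limited to protein-coding genes. Among protein-coding genes in the count files, 213 of 225 (94.7%) at wide regions and 94.4% at narrower regions were tested. Of all 21900 annotated protein-coding genes, 12196 were tested. Mean levels of the 232 ran from 0.998 to 2469 CPM, with 67 at 100 CPM or more and 38 below 10 CPM. Both microRNA genes, Mir7238 and Mir8112, had 0 counts in all 6 libraries.

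RNA at wide regions was tested between Kdm6b-KO and Control within the whole table of 15185 genes. By edgeR's quasi-likelihood test, 1 of the 232 genes (0.431%) had an adjusted p under 0.05, against 0.461% of all tested genes. An unadjusted p under 0.05 was found for 33 (14.2%), 12 with a positive and 21 with a negative log2 fold change, against 14.8% of all. The median log2 fold change of the 232 was -0.01 and that of all genes 0.00, and 113 were positive and 119 negative. The log2 fold change lay within 0.5 of 0 for 190 of the 232 (81.9%), against 71.5% of all tested genes. Its 5th and 95th percentiles were -0.749 and 0.655 at wide regions, -0.635 and 0.747 at narrower regions and -0.910 and 0.822 over all tested genes. Every Kdm6b-KO library was above every Control library for 17 genes (7.33%) and below for 26 (11.2%), where 11.0% and 9.49% of all tested genes behaved so. DESeq2 called 8 of the genes at wide regions and 467 genes in all, and leaving out Control replicate 1 gave 11 and 519.

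Cep83os, a long noncoding RNA gene transcribed away from Cep83 on chromosome 10, was the called gene. Its start and that of Cep83, which encodes a centriole protein needed to dock the basal body of cilia, lie 177 bp apart in 1 wide region of 1640 bp (94687763 to 94689402). Cep83os had Control CPM of 45.9, 44.7 and 47.3 and Kdm6b-KO CPM of 22.1, 16.6 and 24.3. The groups did not overlap, and Cep83os fell by 1.13 on the log2 scale (SE 0.22, adjusted p = 0.0376 by edgeR). Cep83 had Control CPM of 40.7, 43.1 and 41.1 and Kdm6b-KO CPM of 37.3, 40.2 and 37.9, at a log2 fold change of -0.11 with SE 0.20 (adjusted p = 0.830), and under scaling by library totals it was 0.04. The ratio of Cep83os to Cep83, which does not depend on library size, came to 1.13, 1.04 and 1.15 in the Control libraries. In the Kdm6b-KO libraries it came to 0.593, 0.412 and 0.641. A two-sided exact permutation test of this ratio, chosen after Cep83os was called, gave p = 0.1, the smallest that 3 against 3 allow. The ratio was formed from the counts that gave the call, so this p is no separate support. ATAC coverage of the shared region overlapped between the groups, at 943, 810 and 1277 bp in Control and 873, 949 and 1450 bp in 6bKO.

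The call of Cep83os held in some settings only, while its log2 fold change moved little. Its log2 fold change stayed between -1.25 and -0.98 with each library left out in turn, while the adjusted p came to 0.109 or 0.0649 on dropping Control replicate 2 or 3, and to 0.0728, 0.233 or 0.119 on dropping Kdm6b-KO replicate 1, 2 or 3. Over 12 alternatives it ranged from 0.000595 to 0.233 and was under 0.05 in 5. With the replicate number as a block it was 0.0536, and with scaling by library totals 0.0692.

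**Figure D4:**
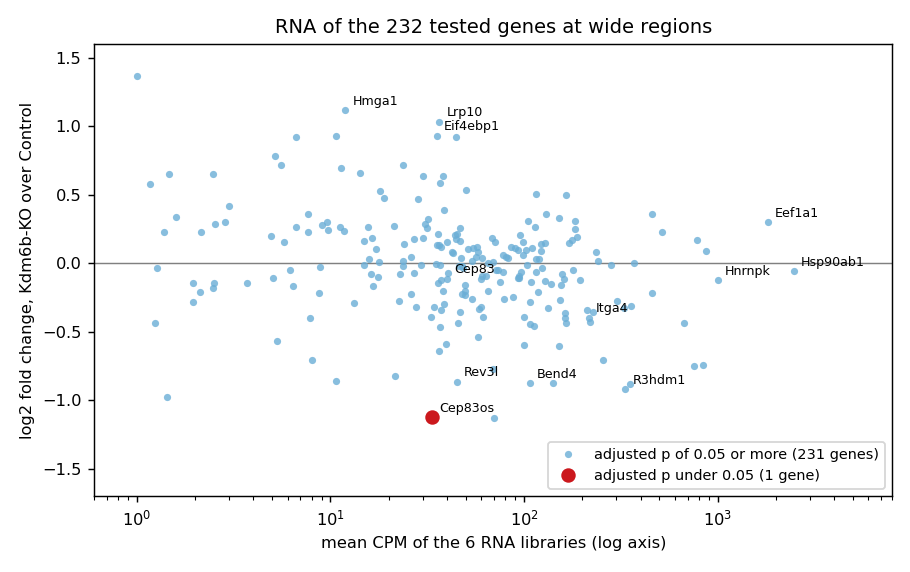
Log2 fold change of RNA, Kdm6b-KO over Control, against the mean CPM of the 6 libraries (log axis) for the 232 tested genes at wide regions. The red point is Cep83os, the only gene with an adjusted p under 0.05. The other 231 had adjusted p from 0.109 to 0.996, and 190 of the 232 lie within 0.5 of 0.

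The genes next in line by p-value did not pass the test. Rev3l, the catalytic subunit gene of the translesion DNA polymerase zeta, had Control CPM of 56.1, 64.5 and 53.3 and Kdm6b-KO CPM of 36.1, 36.0 and 23.7 (log2 fold change -0.86, SE 0.22, adjusted p = 0.109). Lrp10, a member of the LDL receptor family, had 17.1 to 35.2 CPM in the Control libraries and Kdm6b-KO CPM of 42.3, 48.2 and 56.6 (1.03, SE 0.27, adjusted p = 0.114). Hmga1, an architectural chromatin protein gene, had Control CPM of 6.91, 5.84 and 9.72 and Kdm6b-KO CPM of 14.1, 15.3 and 19.7 (1.12, SE 0.30, adjusted p = 0.120). In each of the 3 the groups did not overlap. Bend4, R3hdm1 and Eif4ebp1, the last an inhibitor of cap-dependent translation, had log2 fold changes of -0.88, -0.92 and 0.93 with adjusted p of 0.120, 0.128 and 0.148. Actn1, the gene of the actin crosslinker alpha-actinin, had -1.13 with an adjusted p of 0.172. DESeq2, which called 467 genes in all against 70 by edgeR, called Rev3l, Lrp10, Hmga1, Bend4, R3hdm1 and Actn1. Rev3l, Bend4 and R3hdm1 overlap other annotated genes, and the sources used here give no strand setting for the counting, so reads of the overlapping genes may be mixed.

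The widest regions were described one by one. The widest, of 2322 bp on chromosome 19 (23133972 to 23136293), lay at the long noncoding RNA gene 2410080I02Rik and was covered by 946, 984 and 1866 bp in Control and 1081, 1868 and 2292 bp in 6bKO. That gene had 0.247 to 1.31 CPM and was not tested. The next, of 2295 bp on chromosome 8 (57651612 to 57653906), held the starts of Galnt7, a glycosyltransferase gene of O-linked glycosylation, and of AW046200. Galnt7 had Control CPM of 82.8, 84.5 and 69.6 and Kdm6b-KO CPM of 69.7, 68.9 and 77.2 (log2 fold change -0.13, adjusted p = 0.774, and 0.02 under scaling by library totals). AW046200 had Control CPM of 12.1, 11.1 and 6.94 and Kdm6b-KO CPM of 5.51, 4.79 and 7.91 (-0.70, SE 0.35, adjusted p = 0.359). Groups overlapped for both.

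The third widest, of 2275 bp on chromosome 3 (51559648 to 51561922), held the start of Setd7, a lysine methyltransferase gene, and an end of 5031434O11Rik. Setd7 had 28.1 to 44.5 CPM in Control and 34.8 to 40.7 CPM in Kdm6b-KO. 5031434O11Rik, a long noncoding RNA gene, had Control CPM of 5.38, 4.83 and 3.65 and Kdm6b-KO CPM of 8.65, 8.72 and 8.66 (log2 fold change 0.92, SE 0.34, adjusted p = 0.225). Its groups did not overlap and it did not pass the test. A region of 2187 bp inside Nr3c1 came next, followed by 1 of 2110 bp at Cdc42ep3, which encodes an effector of the small GTPase Cdc42, and Gm17315, a long noncoding RNA gene. Cdc42ep3 had 33.9 to 55.6 CPM in Control and 36.8 to 51.3 CPM in Kdm6b-KO, and Gm17315 had 0.307 to 2.12 CPM and 0.841 to 2.36 CPM.

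The region of 2037 bp on chromosome 5 (23432635 to 23434671) lay at 5031425E22Rik and Kmt2e, whose product binds trimethylated lysine 4 of histone H3. Its coverage was the most even of these, with 1568, 1354 and 1793 bp in Control and 1415, 1788 and 1944 bp in 6bKO, and 972 bp were covered by all 6. Kmt2e had Control CPM of 226.8, 187.7 and 192.6 and Kdm6b-KO CPM of 203.6, 211.2 and 142.0 (log2 fold change -0.13, adjusted p = 0.820, and 0.02 under scaling by library totals). 5031425E22Rik had 12.7 to 23.1 CPM over the 6 libraries. The region of 2025 bp at Hsp90ab1, the gene of a constitutive HSP90 chaperone, and Gm35399 was covered by 688, 1350 and 1735 bp in Control and 801, 1909 and 1743 bp in 6bKO. Hsp90ab1 had Control CPM of 2878, 2497 and 2189 and Kdm6b-KO CPM of 2178, 2185 and 2890 (-0.06, adjusted p = 0.937, and 0.09 under scaling by library totals). The last 3 of the 10 widest were a region of 2016 bp at Sgsm2 and the ribosome assembly gene Tsr1, 1 of 2010 bp inside Tnik, and 1 of 2009 bp on chromosome Y with no annotated gene. Sgsm2 had 7.01 to 10.4 CPM in Control and 6.82 to 13.4 CPM in Kdm6b-KO, and Tsr1 had 94.8 to 120.3 CPM and 99.9 to 130.4 CPM.

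At the width threshold, the 3 regions just inside were at Itga4 (1501 bp), C9orf72 (1502 bp) and Rnf19a (1502 bp), and those just outside included regions at Rffl (1499 bp) and Zbtb44 (1497 bp). Stretches covered by all 6 libraries were 726, 549 and 373 bp inside and 616 and 713 bp outside, so the threshold did not separate them by shared coverage.

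Lists of genes were set against the share of all 21900 annotated protein-coding genes, of which 1.05% were linked to a wide region and 38.0% to a narrower one. Of 32 HSC transcription factor genes 0 had a wide region and 19 a narrower one, and of 23 surface and signalling genes 1 had a wide region and 14 a narrower one. That gene was Itga4, which encodes the integrin alpha-4 subunit with which stem cells adhere to marrow stroma. It had between 231.1 and 253.0 CPM in the Control libraries and Kdm6b-KO CPM of 174.4, 230.3 and 152.8 (log2 fold change -0.40, SE 0.20, adjusted p = 0.373). None of the 39 Hox genes, 35 committed blood cell markers, 18 markers of other tissues, 19 host genes of small nucleolar RNAs or 13 cyclin D, CDK and CDK inhibitor genes had one. In these lists no gene was called in the RNA test in either direction.

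Of 40 immediate-early genes, which are induced within minutes of a stimulus, 3 (7.50%, against 1.05% of protein-coding genes) had a wide region, Dusp2, Cited2 and Gadd45b. A narrower region was linked to 29 of the 40 (72.5%), against 38.0% of protein-coding genes. Across the list 34 were tested, 4 were called higher in Kdm6b-KO and 0 lower, where 0.461% of all tested genes were called in either direction, and none of the 4 was at a wide region. The median log2 fold change of the list was 0.57, against 0.00 over all tested genes. Dusp2, a nuclear phosphatase of MAP kinases, had Control CPM of 24.3, 12.7 and 16.9 and Kdm6b-KO CPM of 22.8, 33.3 and 31.9 (log2 fold change 0.71, SE 0.28, adjusted p = 0.256). Cited2, a coactivator-binding protein needed for HSC maintenance in mice, had 41.9 to 67.9 CPM in Control and 55.7 to 65.3 CPM in Kdm6b-KO. Gadd45b had 0.461 to 1.27 CPM in Control and 0.545 to 2.88 CPM in Kdm6b-KO.

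Of 87 cytosolic ribosomal protein genes 1 (1.15%) had a wide and 62 (71.3%) a narrower region, and 0 of the 84 tested were called. The 1 was Rpl7, which shares a region of 1993 bp with the retinol dehydrogenase gene Rdh10. Rpl7 had Control CPM of 423.4, 352.0 and 429.5 and Kdm6b-KO CPM of 586.3, 441.3 and 519.4 (log2 fold change 0.36, SE 0.21, adjusted p = 0.434). Of 26 translation factor genes 1 (3.85%), Eef1a1, which brings aminoacyl-tRNA to the ribosome, had a wide region. Eef1a1 had Control CPM of 1681, 1383 and 1808 and Kdm6b-KO CPM of 1999, 1777 and 2218 (log2 fold change 0.30, SE 0.23, adjusted p = 0.574). Processed copies of ribosomal protein genes and of Eef1a1 are common in the mouse genome, so reads that fit several copies may be missing from their counts. A separate line for alignments that were not unique held 37.6% to 46.8% of the total of each count file.

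Of 32 splicing factor genes 2 (6.25%) had a wide region, Hnrnpk and Hnrnph1. Of the 31 tested in the list 1 was called lower, which was neither, where 0.461% of all tested genes were called in either direction. Hnrnpk had Control CPM of 1089, 1044 and 1002 and Kdm6b-KO CPM of 956.5, 922.3 and 996.9 (log2 fold change -0.12, adjusted p = 0.822, and 0.02 under scaling by library totals). Hnrnph1 had 265.4 to 312.2 CPM in Control and 241.1 to 338.0 CPM in Kdm6b-KO. Of 50 chromatin regulator genes 3 (6.00%) had a wide region, Kmt2e, the acetyltransferase gene Ep300 and the H3 lysine 9 demethylase gene Kdm4c. In the RNA test 0 of the 50 were called. Ep300 had between 37.0 and 45.2 CPM in the Control libraries and between 24.6 and 43.3 in Kdm6b-KO (-0.30, SE 0.24, adjusted p = 0.591), and Kdm4c had 44.5 to 56.0 CPM in Control and 51.2 to 60.5 CPM in Kdm6b-KO.

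Of 67 replication-dependent histone genes 4 (5.97%) had a wide region, all on chromosome 13. H4c1 and H3c1 share a region of 1962 bp (23760828 to 23762789), covered by 1041, 1241 and 1640 bp in Control and 1153, 1337 and 1302 bp in 6bKO. Messages of these genes end in a stem-loop and not in a poly(A) tail. H3c1 had 0 to 0.381 CPM, H4c1 0 to 0.346 CPM and H4c11 0 to 0.381 CPM across the 6 libraries, at or near the level of 3 counts, so open chromatin at these genes stood beside RNA too low to be tested. H1f5, the fourth, had Control CPM of 27.3, 17.0 and 38.4 and Kdm6b-KO CPM of 21.4, 16.1 and 9.50 (log2 fold change -0.83, SE 0.34, adjusted p = 0.291), with overlapping groups.

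**Figure D5:**
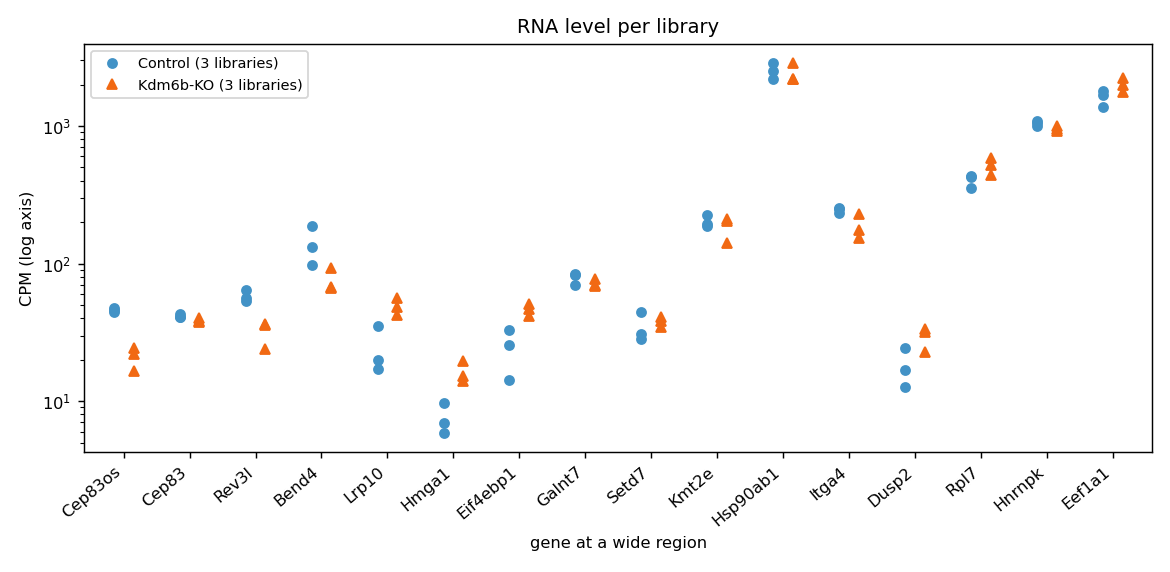
CPM (log axis) of 16 genes at wide regions in each RNA library, circles for the 3 Control and triangles for the 3 Kdm6b-KO libraries. Levels are to be compared between libraries within a gene and not between genes, which differ in length. Cep83os shows groups apart, at 44.7 to 47.3 and 16.6 to 24.3 CPM, beside Cep83 at 40.7 to 43.1 and 37.3 to 40.2 CPM.

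The genes whose windows are printed above for their sequence had no call. Vim, the intermediate filament gene with the TATAAA letters, lies at a region of 1965 bp covered by 722, 1292 and 1670 bp in Control and 923, 1361 and 1765 bp in 6bKO. It had Control CPM of 168.2, 100.8 and 139.0 and Kdm6b-KO CPM of 223.9, 212.5 and 138.8 (log2 fold change 0.50, SE 0.23, adjusted p = 0.343). Plekha5 had 43.6 to 50.0 CPM in Control and 42.0 to 54.9 CPM in Kdm6b-KO, and Cul1, the scaffold gene of SCF ubiquitin ligases, had 98.6 to 143.1 CPM and 118.3 to 141.6 CPM. Among genes sharing a region with others, Zfp91 had 58.7 to 90.2 CPM and Lpxn 0.89 to 3.76 CPM over the 6 libraries. At the region of 1512 bp, Sfi1, a gene of a centrin-binding protein, had Control CPM of 22.0, 31.9 and 35.8 and Kdm6b-KO CPM of 43.6, 49.6 and 46.7 (log2 fold change 0.64, SE 0.23, adjusted p = 0.211), while Eif4enif1 had 112.1 to 287.8 CPM in Control and 109.5 to 165.2 CPM in Kdm6b-KO.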

How the data were processed

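RNA and ATAC libraries of sorted HSCs were analysed, and the 8 samples of chromatin immunoprecipitation and input were not analysed here. The authors deposited raw counts of reads for each Ensembl gene and 1 peak list for each ATAC library. The submitters' processing notes name HTSeq 0.8.0, Partek 6.6, featureCounts 1.4.5 of Subread and STAR 2.0.4 for RNA, and MACS2, BWA 0.7.16a and cutadapt 1.16 for ATAC, on mm10. Lines for unassigned reads were left out. Counts on genes made up 16.5% to 19.7% of the total of all lines, the unassigned lines included. Each deposited peak list gives, per peak, the authors' score, fold enrichment (a ratio) and −log10 p and q, used within a list only. The smallest −log10 q was 2.00.

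The members, gene lists and tests were chosen with earlier results of these data known. Genes were tested with edgeR 4.0.16 (filterByExpr, TMM, robust glmQLFit, glmQLFTest on genotype, two-sided, Benjamini-Hochberg over 15185 genes, threshold 0.05), and SE is the log2 fold change over the square root of F. Labels say that RNA replicates are separate pools. The chi-square of counts per degree of freedom was 14.8 or more for each replicate pair, so none was a duplicate. On counts simulated for this comparison (15184 genes tested), the test recovered 11.0% of genes given a log2 change of 1 and 88.0% of genes given 2. The simulation gave every gene the same dispersion, which was not estimated from these data. These shares are therefore not the power of the test on the measured counts.

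Region coordinates are 1-based on mm10, and gene positions come from RefSeq on GRCm38.p6, the assembly of mm10. A gene was linked when its start in the promoter table lay in the region or, without an entry there, when either end of its span did. Of 49997 annotated genes, 36132 matched a counted ID. Genes named are those at the 10 widest regions, all called genes, up to 4 members per list by mean CPM, genes of regions with most genes, Kdm6b and Kdm6a. Cep83, Rev3l, Lrp10, Hmga1, Bend4, R3hdm1, Eif4ebp1, Actn1, Cnksr3, Mtf1, Gt(ROSA)26Sor, Mir7238, Mir8112 and the printed windows of Cep83os, Plekha5, Cul1 and Vim were chosen after their values were seen. Some named items are not reported here. Intervals cover counting error only. Alternatives were RLE scaling, library totals, no filter, limma-voom, DESeq2, a replicate block, leaving out each library, other peak, merge and width thresholds and other gene links.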

Additional observations from a re-analysis of the deposited data

How the results depend on the processing

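Of 312 recalculated fold changes over 26 named genes, 276 kept their direction and side of the threshold. Scaling by library totals moved the median log2 fold change of all genes from 0.00 to 0.15 and that of genes at wide regions from -0.01 to 0.14. Under it Cep83 had 0.0362, Galnt7 0.0189, Kmt2e 0.0229, Hsp90ab1 0.0895, Hnrnpk 0.0247 and Kdm6b 0.0092, all of opposite sign. With 1 library left out, Kmt2e ranged from -0.23 to 0.0341, Hsp90ab1 from -0.21 to 0.0483 and Kdm6b from -0.49 to 0.19. The cause was not tested.

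The count of called genes was 70 in all (37 higher, 33 lower) and 1 at wide regions. It was 467 and 8 with DESeq2, 576 and 11 with no filter, 100 and 0 with library totals (70 higher, 30 lower), and 88 and 0 with the replicate block. With 1 library left out it ranged from 20 to 519 in all and from 0 to 11 at wide regions. Same-numbered libraries had deviations correlated at 0.06, 0.18 and -0.10, so the numbers were not taken as pairs.

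The 240 regions became 2661 at a width of 1000 bp, 10 at 2000 bp, 0 when the width was that covered by all 6 lists, and 0 when a single peak of 1500 bp was required in each list. Without 1 list they numbered 166 to 227, and with peaks of −log10 q of at least 5 they numbered 213. The ratio of 6bKO to Control coverage, 1.04, ranged from 0.900 to 1.21 without 1 library. The share of counted genes that were tested ran from 90.3% to 94.1% under other gene links, of which the use of promoter-table starts alone was added after seeing the data. ATAC read depth is unknown here, which limits what a difference in peak width can show.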
